A study of Mus musculus with 12 samples.

Results

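The comparison described here follows B cells without the IgM Fc receptor gene Fcmr through the first hours after their antigen receptor was crosslinked. It set 3 libraries of Fcmr KO B cells collected after 6 h against 3 collected after 1 h, chosen by genotype and time alone, which makes 6 of the 12 libraries of the series. All 55487 genes of the deposited table were considered, and 11841 of them, those whose 12 library values averaged 1 FPKM or more, were tested. The cells were splenic B cells, called naive in the labels, held with F(ab')2 anti-IgM at 10 µg/mL for the stated time. The other 6 libraries came from WT B cells treated in the same way, 3 per time, and are used only to set beside the KO change. Every library came from stimulated cells, so the 1 h values are not resting values. Mouse strain, age and sex and the structure of the KO allele are not given in the sources used here. No label ties a library to an animal, so the p-values rest on differences among libraries that could be technical.

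Crosslinking of the B cell receptor (BCR) activates SYK and SRC-family kinases, which raise calcium and switch on the NFAT, NF-kB and ERK pathways. Immediate early genes are transcribed within minutes without new protein and are shut off again quickly, partly by feedback inhibitors and by decay of their unstable mRNAs. Over the following hours a resting B cell enlarges, builds ribosomes and mitochondria and leaves quiescence before it divides. FCMR binds secreted IgM and also meets the IgM BCR inside and on the surface of the cell.

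Fcmr itself (ENSMUSG00000042474, mm10 chromosome 1, 130865669 to 130880791) stood at 48.9, 50.1 and 48.9 FPKM in the KO libraries of 1 h and at 43.1, 46.4 and 42.6 FPKM in those of 6 h. FPKM is fragments per kilobase of transcript, scaled to library size. The 6 WT libraries held 352 to 401 FPKM, so each KO library lay far below each WT library, as the labels say. These KO values rest on 1501 to 1754 fragments, and a sum over the gene does not tell which exons they cover. Fcmr fell slightly in KO cells (log2 fold change -0.16, SE 0.05, limma adjusted p = 0.0125), and the times did not overlap. By exact permutation of the 6 libraries (two-sided) p was 0.1, and no smaller p is possible with 3 against 3. The call ended without KO replicate 3 of 6 h (limma adjusted p = 0.0506).

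The KO libraries held between 20249339 and 24058818 fragments. A transcript of 2 kb with 3 fragments would stand at 0.0623 to 0.0741 FPKM, which is a floor for counting error only. Time separated the 6 libraries on the first principal component, with 89.4% of the variance. The 15 pan B cell markers summed to between 9030.0 and 11630.0 FPKM at 1 h and to between 5048 and 7075 FPKM at 6 h, and none was at 0. Transcripts listed as markers of other cells were present too, and whether B cells made some of them was not tested. The summed level of 23 macrophage and monocyte markers ranged from 344.8 to 399.9 FPKM at 1 h and from 109.6 to 155.1 FPKM at 6 h, that of 18 T cell markers from 284.5 to 313.3 and from 91.89 to 114.1 FPKM, and that of 15 NK cell markers from 149.8 to 158.4 and from 85.87 to 87.47 FPKM. Such sums weigh abundant members most, such as Ighm among the pan B cell markers. Of the 15 T cell markers tested 2 were at least 2-fold lower, and their median log2 fold change was -0.49. In bulk RNA fewer cells of a type and less RNA per cell cannot be told apart.

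Most genes changed between the times. Of the 11841 genes tested, 9292 were called (78.5%, limma with Benjamini-Hochberg adjusted p under 0.05), 5990 higher (50.6%) and 3302 lower (27.9%) at 6 h. The median log2 fold change of all tested genes was 0.22 on the deposited scale, -0.02 after median-ratio scaling, 0.19 as TPM (values set to a common sum) and 0.05 after quantile normalization. With median-ratio scaling the calls were 4605 higher and 4534 lower. "Rose" and "fell" are therefore used below only of genes called in the same direction on all 4 scales, which held for 4562 higher genes (38.5%) and 3264 lower genes (27.6%). Fold changes are given as log2 of FPKM + 1 on the deposited scale, to be read against the overall median of 0.22. They understate the change of genes with low levels. Counts of list members that rose or fell are to be read against the 38.5% and 27.6% of all tested genes.

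At least 2-fold changes were found for 1811 genes higher (15.3%) and 1021 lower (8.62%). After median-ratio scaling these counts were 1080 and 1551. Of the 1811, 1452 were at least 2-fold higher in each of the 3 same-numbered pairs of libraries and 1810 were higher in each. Of the 1021, 794 were at least 2-fold lower in each pair. Both sets were picked by their change in these same libraries. The pair counts, and the shares of FPKM given below, describe the sets and are no independent check. The 3 libraries of 6 h all lay above the 3 of 1 h in 52.9% of tested genes and all below in 29.6%. The 1811 genes took 6.63, 6.19 and 6.52% of the summed FPKM of the libraries of 1 h and 18.3, 18.1 and 17.2% of those of 6 h. The 1021 genes went from 15, 15.9 and 14.3% to 4.85, 4.98 and 5.12%. At 1 h the median level of the protein-coding genes that were 2-fold lower was 27.4 FPKM. It was 11.5 FPKM for all 10084 protein-coding genes tested and 6.92 FPKM for those that were 2-fold higher. At 6 h the order was reversed, with 7.93, 14.4 and 19.9 FPKM. Picking genes by their change favours such an order at each time, so these levels are not read as a trait of the genes. The 826 lower protein-coding genes also had a longer median span on the genome (31.4 kb, against 23.3 kb for all tested and 16.3 kb for the 1665 higher ones) and a longer median transcript (3585, 3362 and 2874 nt).

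**Figure D1:**
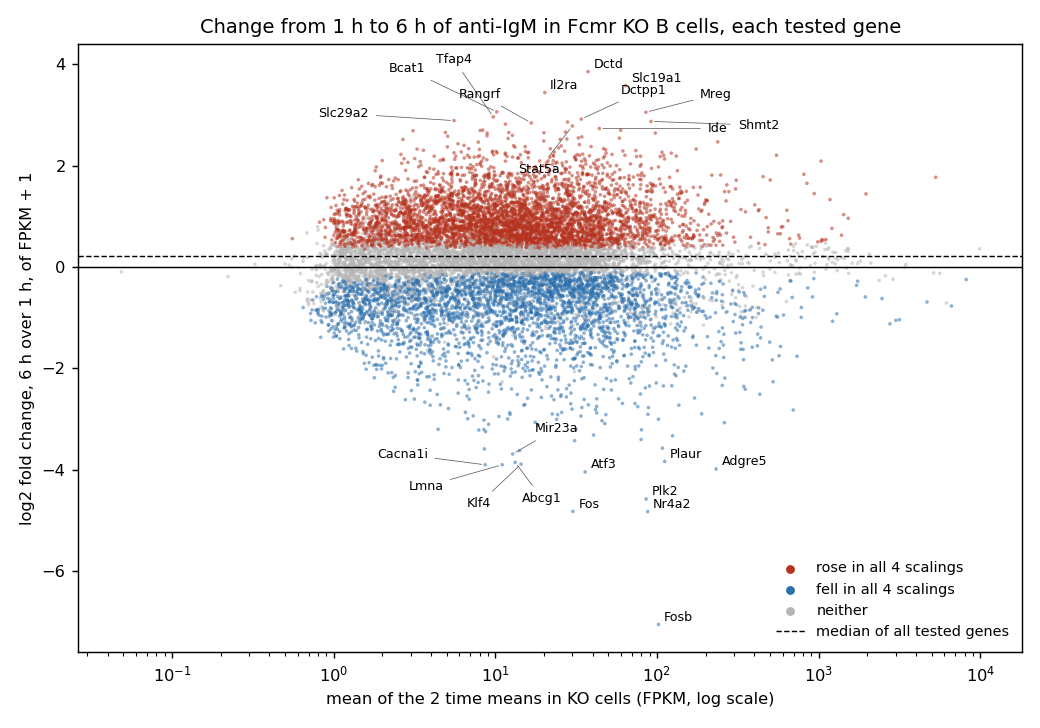
Each point is 1 of the 11841 tested genes, placed by its mean level in KO cells (FPKM, log axis) and by its log2 fold change from 1 h to 6 h, with genes that rose in red, genes that fell in blue and the overall median of 0.22 as a dashed line. The 12 highest and 12 lowest named genes are labelled, and Fosb at -7.06 stands below all others.

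The 12 genes with the largest rise included several enzymes and carriers of nucleotide, folate and amino acid metabolism. Dctd, which encodes dCMP deaminase, stood at 5.06, 2.85 and 4.21 FPKM at 1 h and at 72.7, 73.1 and 66.9 FPKM at 6 h (log2 fold change 3.86, SE 0.13, limma adjusted p = 1.21e-09). Slc19a1, the reduced folate carrier, went from 9.99, 8.22 and 8.92 FPKM to 119.8, 120.0 and 117 FPKM (3.58, SE 0.06). Il2ra, the alpha chain of the interleukin-2 receptor, went from 2.98, 2.25 and 2.52 FPKM to 36.8, 39.7 and 37.2 FPKM (3.44, SE 0.11). For each of these genes every library of 6 h lay several fold above every library of 1 h. The 12 were taken only from genes without overlap between times, so the separation is no independent check. Bcat1, a branched-chain amino acid transaminase, rose by 3.06 (SE 0.13) and Slc29a2, a nucleoside transporter, by 2.89 (SE 0.07). Dctpp1, which breaks down dCTP, rose by 2.92 and Shmt2, the mitochondrial serine hydroxymethyltransferase, by 2.87. Transcription factor genes were in the same group: Tfap4, a direct MYC target in many cells, went from 1.52, 1.19 and 1.61 FPKM to 18.6, 19.0 and 16.5 FPKM (2.96, SE 0.12), and Stat5a, which acts below cytokine receptors, from 6.94, 6.49 and 7.12 FPKM to 50.8, 53.6 and 54.8 FPKM (2.78, SE 0.05). Mreg (3.06), Rangrf, which binds the nuclear transport GTPase RAN (2.84), and Ide, the insulin-degrading protease (2.73), complete the 12. No gene went from under 0.1 FPKM in all libraries of 1 h to over 2 FPKM in all libraries of 6 h.

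The 12 genes with the largest fall included AP-1 and other early-response factors beside surface and structural proteins. Fosb, an AP-1 subunit, stood at 190.2, 215 and 206 FPKM at 1 h and at 0.484, 0.586 and 0.541 FPKM at 6 h (log2 fold change -7.06, SE 0.13, limma adjusted p = 6.44e-11). Nr4a2, an orphan nuclear receptor, went from 163, 199 and 149 FPKM to 4.66, 5.07 and 5.24 FPKM (-4.83, SE 0.11). Fos went from 53.8, 63.2 and 60.8 FPKM to 1.14, 1.01 and 1.23 FPKM (-4.82, SE 0.16). The times were separated by more than an order of magnitude in all 3 genes, which were likewise taken only from genes without overlap. The kinase gene Plk2 (-4.58), the stress-induced factor gene Atf3 (-4.05) and Klf4, which restrains B cell proliferation (-3.89), fell as well. Other members of the 12 encode surface or structural proteins: Adgre5, the adhesion receptor CD97, went from 419, 484 and 411 FPKM to 24.6, 27.0 and 28.2 FPKM (-3.99, SE 0.09), Plaur, the urokinase receptor, changed by -3.84, the calcium channel gene Cacna1i by -3.90, the lamin A and C gene Lmna by -3.90 and the cholesterol exporter gene Abcg1 by -3.86. Plaur and Klf4 are also made by macrophages, whose markers fell too (17 of 20 tested), and the part of those cells in these changes was not tested.

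**Figure D2:**
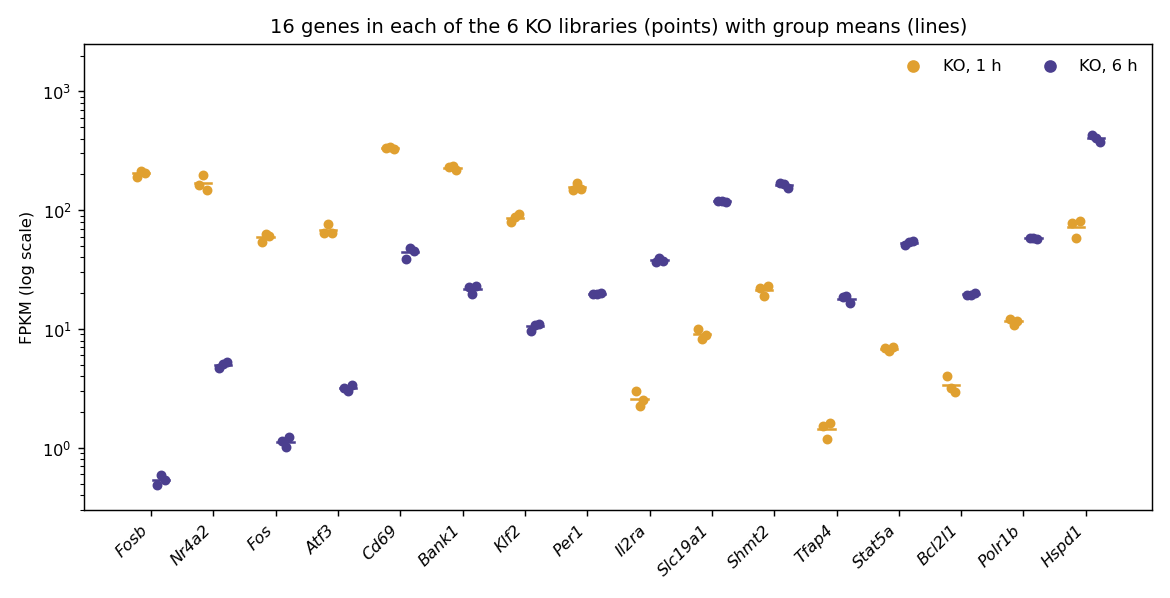
FPKM (log axis) of 16 genes in each of the 6 KO libraries, with 1 h in yellow, 6 h in purple and lines at the group means. In none of the 16 do the times overlap: the first 8 genes are lower at 6 h and the last 8 higher. The 16 were picked for large changes in these libraries. Among all tested genes the 6 h libraries lay all above those of 1 h in 52.9% and all below in 29.6%.

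Of 36 immediate early transcription factor genes tested, 32 fell and 2 rose, against 27.6% and 38.5% of all genes, and 27 were at least 2-fold lower. Their median log2 fold change was -1.79, so levels were lower than at 1 h but not gone, and together they went from 1.26, 1.35 and 1.16% of all FPKM to 0.331, 0.339 and 0.345%. The 2 that rose were Batf, an AP-1 partner needed for class switching, from 8.13, 6.98 and 8.13 FPKM to 25.4, 23.2 and 24.4 FPKM (1.53, SE 0.09), and Id3, an inhibitor of E proteins, from 11.2, 12.6 and 13.5 FPKM to 34.4, 31.3 and 34.3 FPKM (1.36, SE 0.11). Of 13 genes in a list of DUSP, Sprouty and related feedback inhibitors of ERK and other MAP kinases 10 fell and 2 rose. Which kinase each member acts on in these cells was not tested, so the counts are not read as a change of ERK feedback. The nuclear phosphatase gene Dusp1 went from 56.6, 61.8 and 53.9 FPKM to 4.69, 4.596 and 3.99 FPKM (-3.43, SE 0.11), with Dusp16 at -2.92 and Dusp10 at -2.73, while Dusp4 (0.75) and Dusp7 (1.21) rose. Among 19 genes listed as mRNA decay factors 11 fell and 5 rose. The 11 include Nfkbid and Tnfaip3, which are counted again below among the NF-kB genes and are not decay factors themselves. Zfp36, which binds AU-rich elements and marks mRNAs for decay (-2.15), and the endonuclease gene Zc3h12a (-1.41) fell, and the decapping enzyme gene Dcp2 (1.19) and the deadenylase subunit gene Cnot8 (0.75) rose.

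Of the 36 tested immediate early genes 28 have a promoter in the RefSeq table. Some of the 28 hold, in the 250 bases before the start, the cyclic AMP response element TGACGTCA, a site bound by CREB and ATF factors. Among those that hold it, the antiproliferative gene Btg2 has the largest change. It stood at 171, 189 and 171 FPKM at 1 h and at 46.6, 48.1 and 51.6 FPKM at 6 h. Its 250 bases before the start, from RefSeq on GRCm38.p6 (chr1:134079156-134079405, minus strand), are shown with the site, which starts 166 bases before the transcript, in capitals.
Btg2: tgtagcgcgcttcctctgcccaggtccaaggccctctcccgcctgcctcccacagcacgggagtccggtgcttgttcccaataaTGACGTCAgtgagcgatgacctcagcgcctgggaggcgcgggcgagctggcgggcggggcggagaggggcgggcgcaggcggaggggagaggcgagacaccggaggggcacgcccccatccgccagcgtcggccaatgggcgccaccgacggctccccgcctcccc
Letters of a motif are a description and not evidence of binding. The element was found, on either strand, in 1.88% of all 300-base promoters of the RefSeq table (250 bases before the start and 50 after). Among the promoters found for tested protein-coding genes the share was 3.57%. For the early list itself no share is given, since the table held only 28 of its 36 genes.

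Of 19 NFAT and calcium responsive genes 12 fell and 3 rose. The inositol trisphosphate receptor genes Itpr3 (-1.82) and Itpr1 (-1.55), which release calcium from the ER, fell, and Rcan1, an inhibitor of calcineurin, rose from 4.001, 4.69 and 5.27 FPKM to 15.98, 16.6 and 16.02 FPKM (1.61, SE 0.08). Among 22 NF-kB subunits and inhibitors 12 fell and 2 rose. Nfkbid, a nuclear IkB protein, went from 368, 377 and 320.3 FPKM to 83.4, 93.5 and 88.1 FPKM (-1.99, SE 0.09), and the subunit gene Rel (-1.29), Nfkbiz (-1.27) and the deubiquitinase gene Tnfaip3 (-1.15) fell. Nfkb1, which encodes p105 and p50, went the other way, from 98.1, 96.1 and 97.6 FPKM to 200.1, 208 and 203 FPKM (1.06, SE 0.04). The NF-kB motif, GGG and TTTCC with any 2 bases between and read on both strands, was in the promoters of 7 of the 18 genes of this list found in the table (38.9%), against 1.62% of all promoters. It was in 1.68% of those found for tested protein-coding genes.

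Of 20 chemokine and cytokine genes 15 fell and 1 rose. Ccl3, a chemokine that attracts T cells, went from 62.5, 68.5 and 55.03 FPKM to 15.4, 14.8 and 16.5 FPKM (-1.93, SE 0.10), Ccl4 by -1.77 and Il10 by -1.84, while Ccl22 rose by 1.04 (SE 0.16) at low level, from 0.283, 0.423 and 0.201 FPKM to 1.07, 2.06 and 2.01 FPKM. Il1b, which is also a macrophage gene, fell by 1.81, and macrophage transcripts fell beside it. Of 30 activation and costimulatory surface molecules 16 fell and 7 rose. Cd69, an early activation antigen that retains cells in lymphoid tissue, went from 334, 338 and 329.6 FPKM to 38.8, 48.4 and 45.2 FPKM (-2.90, SE 0.09) and the checkpoint ligand gene Cd274 fell by 2.25. Siglecg, counted here and among the inhibitory receptors, changed by -2.16. Beside Il2ra, Havcr1, which encodes TIM-1, rose by 2.09 (SE 0.20) and Slc7a5, a subunit of the large neutral amino acid transporter, by 1.86 (SE 0.12). All 3 libraries of 6 h lay above all 3 of 1 h for each of the 3 genes, which were picked by their change. The same held for 52.9% of all tested genes.

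Receptors and signalling proteins of the resting B cell were mostly lower at 6 h. Of 39 BCR signalling components 22 fell and 7 rose. The adaptor gene Bank1 went from 232, 237 and 216 FPKM to 22.5, 19.8 and 23.1 FPKM (-3.33, SE 0.10). Syk, the kinase that binds the phosphorylated BCR, went from 208, 206 and 208 FPKM to 36.6, 42.2 and 41.2 FPKM (-2.35, SE 0.08), and Cd79a, a BCR signalling chain, from 813, 788 and 823 FPKM to 216, 227 and 236 FPKM (-1.83, SE 0.06). The SRC-family kinase gene Fyn rose from 23.1, 21.3 and 27.9 FPKM to 90.5, 99.96 and 90.3 FPKM (1.92, SE 0.10), with Mapk3, which encodes ERK1 (1.00), and Akt1 (0.86). Cd79b, the partner of Cd79a in the receptor, rose by 0.44 (SE 0.07) on all 4 scales, so the chains of the one heterodimer went in opposite directions. Cd79b was singled out after its values were seen. Of 31 inhibitory receptors and phosphatases 21 fell and 1 rose, with Pecam1 at -2.60, Siglecg at -2.16, Cd22 at -1.98 and the phosphatase gene Ptprc (CD45) at -1.63. The adaptor gene Dok1 was the one that rose (0.95).

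Of 18 homing and adhesion receptors 14 fell and 2 rose. Itgb7, an integrin chain for gut homing, fell (-2.90), and Cxcr4, the CXCL12 receptor, went from 858, 916 and 832 FPKM to 291, 297 and 288 FPKM (-1.57, SE 0.07). Ccr6 rose from 180.4, 183 and 175 FPKM to 273, 292 and 295 FPKM (0.67, SE 0.10). Of 18 genes of MHC class II presentation 14 fell and 1 rose, and their share of all FPKM went from 3.27, 3.38 and 3.05% to 1.48, 1.41 and 1.53%. The peptide-loading regulators H2-Oa (-2.02) and H2-Ob (-1.75) and the loading factor H2-DMa (-1.77) were among those that fell, and the transcription subunit Rfxap rose by 0.66. Macrophages make class II molecules as well, and their markers fell beside this list. Of 9 Fc receptor genes 7 fell and 1 rose. Fcgrt, the neonatal Fc receptor, went from 8.88, 10.9 and 9.35 FPKM to 0.564, 0.626 and 0.436 FPKM (-2.79, SE 0.11), Fcer2a (CD23) fell by 1.93, and Trim21, the cytosolic Fc receptor, rose by 1.14. Fcmr itself is 1 of the 7.

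Genes of quiescence fell as well. Of 36 members, FOXO targets among them, 27 fell and 2 rose (median -0.77). Klf2, a factor of quiescent lymphocytes, went from 79.3, 86.8 and 92.1 FPKM to 9.65, 10.9 and 11.1 FPKM (-2.92, SE 0.07), Tsc22d3, which encodes GILZ, changed by -2.76 and Ets1, which restrains plasma cell differentiation, by -2.51. Of 29 transcription factors of the B lineage and plasma cells 17 fell and 3 rose, with Pax5, which maintains B cell identity, at -1.70, Mef2c at -1.36 and Irf8 at 0.63. Of 16 clock genes 10 fell and 4 rose. Per1 went from 147, 170.3 and 151 FPKM to 19.8, 19.7 and 20.1 FPKM (-2.91, SE 0.07) and its relative Per3 from 0.980, 1.15 and 0.773 FPKM to 4.74, 4.70 and 4.44 FPKM (1.52, SE 0.10). Per1 and Per3 thus moved in opposite directions. The times overlapped in neither, but both genes were picked by size of change.

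Members of the MYC network went both ways. Of 13 members 4 rose and 5 fell, against 38.5% and 27.6% of all tested genes, so the split is not read as particular to the list. Myc itself went from 530.3, 505 and 437 FPKM to 176, 178 and 165 FPKM (-1.50, SE 0.07), and its antagonists Mxd1 (-2.25), Mxd4 (-1.54) and Mnt (-0.82) fell with it.

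Ribosome production was among the processes with the most uniform rise. Of 76 ribosome biogenesis and nucleolar factors 72 rose and 1 fell, 57 were at least 2-fold higher, and the median log2 fold change was 1.26. Their share of all FPKM went from 0.641, 0.585 and 0.575% to 1.51, 1.5 and 1.41%. Dkc1, the pseudouridine synthase of box H/ACA snoRNPs, went from 26.4, 21.4 and 25.3 FPKM to 130.4, 124 and 116 FPKM (2.30, SE 0.09), and its partner Nhp2 rose by 2.18. Nop2, an rRNA methyltransferase, went from 17.2, 15.7 and 16.4 FPKM to 81.4, 80.4 and 73.5 FPKM (2.19, SE 0.08). Riok1, a kinase of late small-subunit maturation, was the member that fell (-0.40, SE 0.04). Of 29 subunits of RNA polymerases I and III 20 rose and 3 fell. Polr1b, a core subunit of RNA polymerase I, went from 12.2, 10.7 and 11.8 FPKM to 58.0, 58.3 and 57.3 FPKM (2.23, SE 0.10). The alternative RNA polymerase III subunits moved apart: Polr3g, typical of proliferating cells, went from 2.75, 2.47 and 3.53 FPKM to 23.4, 22.5 and 21.9 FPKM (2.60, SE 0.09), and Polr3gl from 12.7, 10.8 and 11.6 FPKM to 4.98, 4.98 and 4.49 FPKM (-1.12, SE 0.09). Of 13 snoRNA host genes 11 rose and 0 fell, with Snhg3 at 1.48 and Gas5, at 435, 368 and 399.6 FPKM against 893, 892 and 828 FPKM, at 1.12.

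The E-box CACGTG, the letters that MYC and MAX recognise, was in 16 of the 66 promoters found for the ribosome biogenesis list (24.2%). It was in 7.24% of all promoters, in 10.7% of the 8208 promoters found for tested protein-coding genes and in 14.1% of the 1373 found for protein-coding genes at least 2-fold higher. For protein-coding genes at least 2-fold lower the table held under 80%, so no share is given. Nop2 has the largest change among those of the 66 that hold it in the 250 bases before the start, 60 bases before the start (RefSeq, GRCm38.p6, chr6:125131633-125131882, plus strand, E-box in capitals).
Nop2: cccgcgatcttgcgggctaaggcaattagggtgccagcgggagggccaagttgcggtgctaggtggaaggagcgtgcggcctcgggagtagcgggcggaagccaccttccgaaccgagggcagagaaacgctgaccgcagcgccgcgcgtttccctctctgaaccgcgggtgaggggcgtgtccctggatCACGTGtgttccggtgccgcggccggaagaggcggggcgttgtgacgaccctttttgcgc

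Ribosomal proteins themselves changed less. Of 81 cytosolic ribosomal protein genes 14 rose, 3 fell and 64 did neither on all 4 scales, and their median of 0.26 lay beside the overall 0.22 and turned to -0.02 after median-ratio scaling. On the deposited scale 46 were called higher and 3 lower. Median-ratio scaling gave 15 higher and 21 lower, quantile normalization 43 and 15, TPM 46 and 7, and replicate pairs as a block 53 and 5. They held 14.5, 14 and 13.4% of all FPKM at 1 h and 16.2, 16.1 and 15% at 6 h. Rps27 and its paralogue Rps27l went opposite ways. Rps27 fell from 3096, 3115 and 2766 FPKM to 1991, 2049 and 1788 FPKM (-0.62, SE 0.08), and Rps27l rose from 59.0, 55.7 and 65.1 FPKM to 187, 182 and 176 FPKM (1.58, SE 0.11). Reads shared by such near-identical copies may be divided unevenly by counting, so both values are uncertain. Rps2, which has many processed copies and is uncertain for the same reason, rose by 1.03.

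Of 51 initiation factors 36 rose and 6 fell. Eif2b3, a subunit of the exchange factor for eIF2, rose by 2.33 and Eif5a went from 217, 188 and 207 FPKM to 737, 710.2 and 662 FPKM (1.78, SE 0.09). Among those that fell were Eif2ak3, the kinase PERK (-1.48), and Pdcd4, an inhibitor of eIF4A (-1.29). Of 23 cytosolic aminoacyl-tRNA synthetases 22 rose and 0 fell, 18 of them at least 2-fold (median 1.47). Iars went from 21.5, 21.2 and 23.0 FPKM to 90.4, 88.8 and 92.6 FPKM (2.00, SE 0.04), with Mars at 1.97, Lars at 1.96 and Dars at 1.81. Of 20 mitochondrial synthetases and their partners 15 rose and 0 fell. Amino acid transporters were mixed, with 9 of 20 that rose and 8 that fell: the neutral amino acid carriers Slc1a4, from 0.307, 0.138 and 0.386 FPKM to 4.82, 5.14 and 4.86 FPKM (2.22, SE 0.09), and Slc1a5 (1.47) rose, and Slc43a2 (-0.97) and Slc16a10 (-0.78) fell.

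The amino acid response element TGATGNAA, recognised by ATF4 with C/EBP partners, was in 4.06% of all promoters and in 2.4% of those found for tested protein-coding genes. It was in 3 of 16 promoters found for the amino acid transporters (18.8%). For the cytosolic synthetases no share is given, since the table held 16 of the 23. Gars, the glycyl-tRNA synthetase gene, has the largest change among synthetases and transporters of the table with that element in the 250 bases before the start. It went from 27.9, 25.1 and 27.4 FPKM to 87.2, 86.0 and 84.0 FPKM (1.64, SE 0.05). The element lies on the opposite strand, from 30 bases before the start (RefSeq, GRCm38.p6, chr6:55037751-55038000, plus strand), so the capitals are its reverse complement.
Gars: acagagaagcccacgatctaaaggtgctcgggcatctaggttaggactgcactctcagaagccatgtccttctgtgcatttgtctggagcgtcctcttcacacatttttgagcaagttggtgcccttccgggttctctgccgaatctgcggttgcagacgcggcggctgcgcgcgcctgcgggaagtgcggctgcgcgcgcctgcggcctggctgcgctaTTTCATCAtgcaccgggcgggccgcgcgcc
Of 40 genes of the unfolded protein and integrated stress responses 11 rose and 13 fell, against 38.5% and 27.6% of all tested genes. The counts are not read as a trait of the list. Ppp1r15a, which reverses eIF2 phosphorylation, went from 595, 604 and 534 FPKM to 118, 110.4 and 107 FPKM (-2.36, SE 0.12), and the ER oxidase gene Ero1lb (-2.21) and the co-chaperone gene Dnajb9 (-1.49) fell.

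One-carbon, nucleotide and sterol synthesis genes mostly rose. Of 35 folate, serine and nucleotide genes 28 rose and 3 fell (median 1.52). Shmt1, the cytosolic counterpart of Shmt2, rose by 2.49, Cad, which starts pyrimidine synthesis, from 6.88, 7.51 and 7.83 FPKM to 43.0, 42.4 and 40.1 FPKM (2.35, SE 0.05) and the purine enzyme gene Gart by 2.31. Rrm2, the S-phase subunit of ribonucleotide reductase, fell (-1.23, SE 0.40, adjusted p = 0.0149), from 14.7, 6.31 and 12.3 FPKM to 4.23, 2.86 and 4.91 FPKM. The call ended without KO replicate 1 of 1 h or replicate 2 of 6 h (adjusted p = 0.0603 and 0.0553). Of 31 sterol genes 24 rose and 4 fell. The synthesis genes Sqle (2.22), Idi1 (2.18) and Fdft1 (2.18) rose. Those that fell included the cholesterol exporters Abcg1 and Abca1, the latter from 31.9, 32.1 and 34.0 FPKM to 6.85, 8.49 and 7.75 FPKM (-1.96, SE 0.11), and Mylip, which degrades the LDL receptor (-1.53).

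Energy metabolism and mitochondria rose in their nuclear-encoded part. Of 27 glycolysis and glucose transport genes 16 rose and 4 fell. Ldha, lactate dehydrogenase A, went from 242, 219 and 239.5 FPKM to 800.4, 774 and 737 FPKM (1.72, SE 0.07), with Tpi1 at 1.83 and Hk2 at 1.5. The glucose transporter genes went the other way, Slc2a1 from 20.6, 25.3 and 21.8 FPKM to 7.52, 7.61 and 7.37 FPKM (-1.47, SE 0.07) and Slc2a3 by -0.51. Of 81 mitochondrial ribosomal proteins 73 rose and 0 fell (median 0.94), led by Mrpl12 at 1.94. Of 79 nuclear-encoded subunits of the respiratory chain 61 rose and 2 fell (median 0.68), with Ndufb6 at 1.54. Of 15 mitochondrially encoded genes 13 were tested, the rRNA genes mt-Rnr1 and mt-Rnr2 among them. Of the 13, 0 rose and 3 fell (median -0.13), against 38.5% and 27.6% of all tested genes. The rRNA genes had the largest called changes of the list (mt-Rnr1 -0.5, mt-Rnr2 -0.28). The share of all FPKM held by the 15 went from 5.62, 5.92 and 5.76% to 4.86, 5.06 and 4.83%. mt-Co1 stood at 8922, 8729 and 8998 FPKM at 1 h and at 7444, 7610.5 and 7408 FPKM at 6 h (-0.25, SE 0.07), a call that ended without both KO libraries of replicate 3 (limma adjusted p = 0.0683) or with no filter on low values (0.409). Poly-A selection captures mitochondrial transcripts unevenly, and its part in these levels was not tested.

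**Figure D3:**
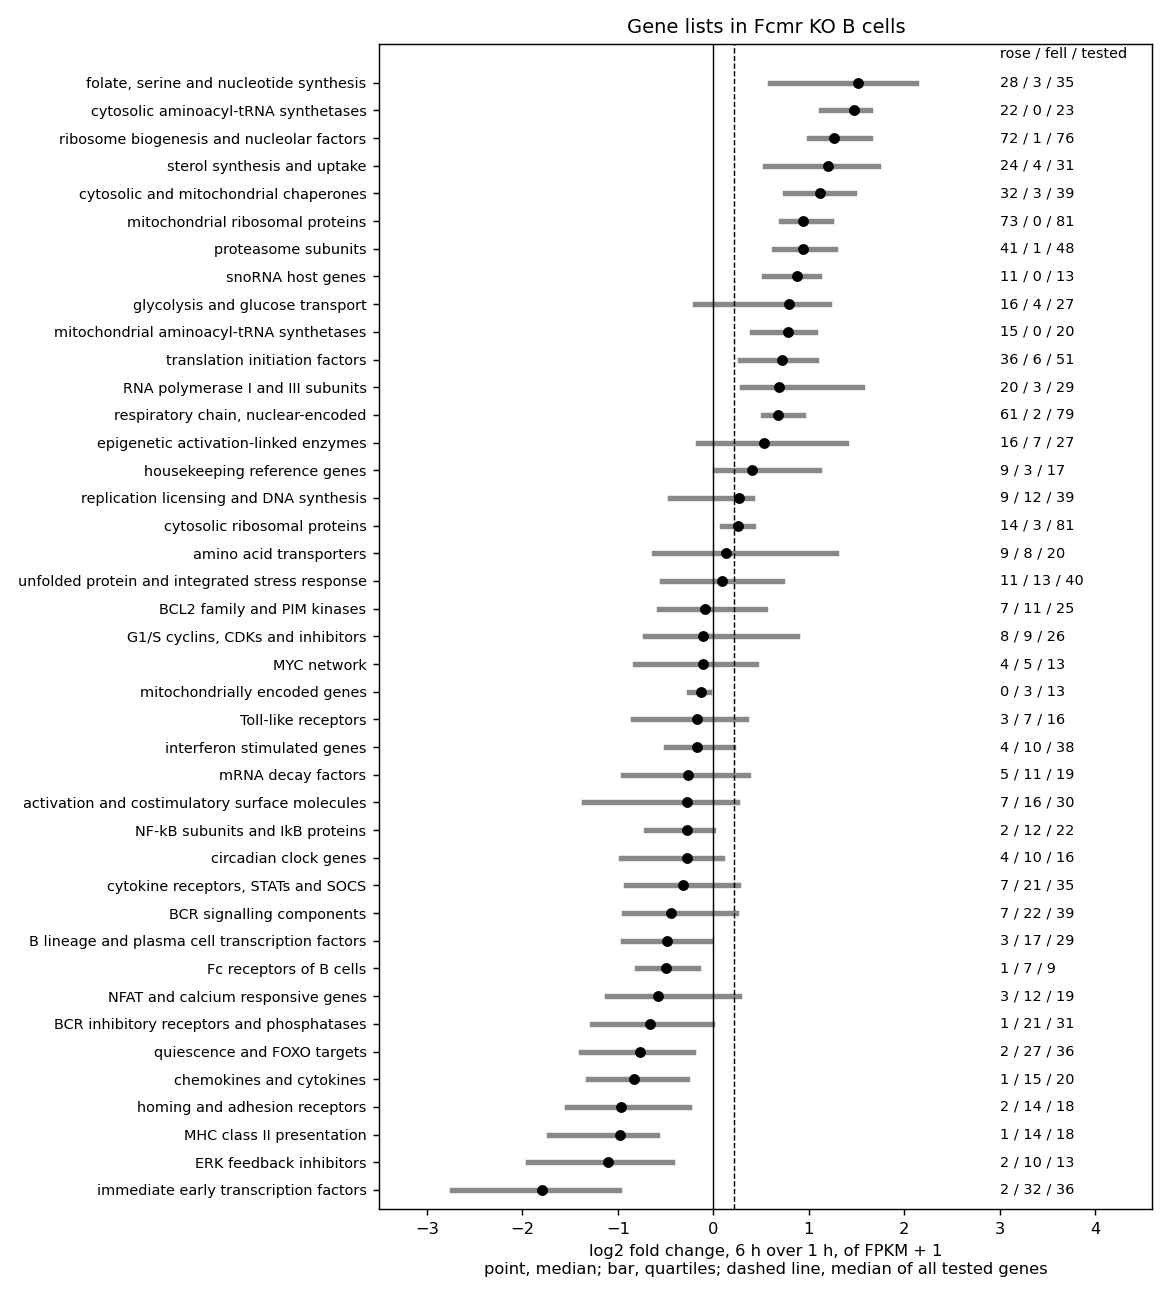
Median (point) and quartiles (bar) of the log2 fold change from 1 h to 6 h for 41 gene lists in KO cells, with the overall median of 0.22 dashed and, at the right, the members that rose, fell and were tested. The lists run from immediate early transcription factors at -1.79 to folate, serine and nucleotide synthesis at 1.52.

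Protein quality control rose too. Of 39 chaperone genes 32 rose and 3 fell, and their share of all FPKM went from 1.23, 1.09 and 1.30% to 3.21, 3.18 and 2.94%. Hspd1, the mitochondrial HSP60, went from 77.6, 58.3 and 81.4 FPKM to 426, 405 and 377 FPKM (2.47, SE 0.16), and the abundant cytosolic Hspa8 from 2429.7, 2096 and 2703 FPKM to 8501, 8352 and 7718 FPKM (1.77, SE 0.13). Dnajb4 fell by 1.27. Of 48 proteasome genes 41 rose and 1 fell (median 0.94), led by the assembly factor Psmg1 at 2.21. The one that fell was Psmb10, an immunoproteasome subunit, from 28.3, 28.2 and 29.8 FPKM to 21.6, 23.6 and 20.5 FPKM (-0.38, SE 0.07).

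**Figure D4:**
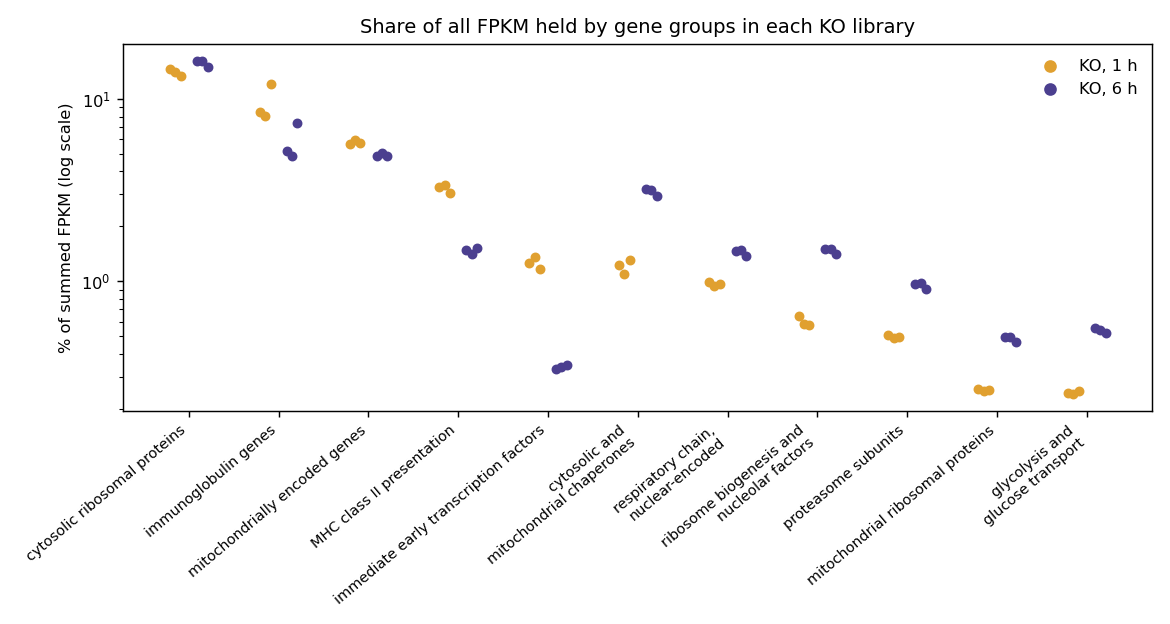
Share of all FPKM (percent, log axis) held by 11 gene groups in each of the 6 KO libraries, with 1 h in yellow and 6 h in purple. Chaperones went from 1.09 to 1.30% to 2.94 to 3.21% and MHC class II genes from 3.05 to 3.38% to 1.41 to 1.53%, and for immunoglobulin genes replicate 3 is the highest library at each time (12.1 and 7.34%).

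Cell cycle genes did not move as 1 group. Of 26 G1/S genes 8 rose and 9 fell, against 38.5% and 27.6% of all tested genes. Cdk4 went from 31.7, 29.996 and 31.5 FPKM to 129, 129 and 120.2 FPKM (1.99, SE 0.07) and Cdk6 rose by 1.69. The repressor gene E2f6 rose from 3.20, 2.46 and 2.83 FPKM to 22.2, 20.6 and 20.8 FPKM (2.54, SE 0.08), and the CDK4 and CDK6 inhibitor gene Cdkn2d fell from 13.2, 12.1 and 12.5 FPKM to 2.63, 1.72 and 2.65 FPKM (-2.04, SE 0.14). Of 39 replication genes 9 rose and 12 fell on all 4 scales. On the deposited scale alone 21 were called higher and 12 lower, with a median of 0.27 beside the overall 0.22. Within the origin recognition complex Orc2 (1.45) and Orc5 (1.06) rose and Orc1 fell (-1.10), and the licensing factors Cdt1 (-1.02) and Cdc6 (-0.98) fell. Of 25 genes of the BCL2 family and PIM kinases 7 rose and 11 fell. Bcl2l1, which encodes BCL-XL and opposes apoptosis, went from 4.01, 3.19 and 2.95 FPKM to 19.4, 19.4 and 20.3 FPKM (2.25, SE 0.17), while the death-promoting Bid (1.94) and Bax (1.21) also rose. Pmaip1 (NOXA) fell by 1.88 and the survival kinase gene Pim1 from 123, 116 and 109 FPKM to 35.6, 40.5 and 37.7 FPKM (-1.59, SE 0.06).

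Of 35 genes of cytokine receptors, STATs and SOCS proteins 21 fell and 7 rose. Stat5b, next to Stat5a on the chromosome, rose by 0.96, Socs3, a feedback inhibitor of cytokine receptors, fell from 15.4, 17.1 and 17.2 FPKM to 0.961, 0.742 and 0.837 FPKM (-3.25, SE 0.07), and the receptor genes Il10ra (-2.43) and Il4ra (-1.99) fell. Of 16 Toll-like receptor pathway genes 7 fell and 3 rose, with Irak3 at -2.03 and Cd180 at -1.48. Of 27 epigenetic enzymes 16 rose and 7 fell. The arginine methyltransferase genes Prmt5 (1.83), Prmt1 (1.80) and Prmt7 (1.78) rose together, and the histone demethylase gene Kdm6b went from 145, 148 and 123 FPKM to 39.9, 40.1 and 41.1 FPKM (-1.75, SE 0.07). Of 38 interferon stimulated genes 10 fell and 4 rose, near or below the background shares. Here 1 library of 6 h stood apart: Irf7 was at 2.95, 9.13 and 3.98 FPKM and Ifi47 at 27.9, 44.9 and 31.5 FPKM, with replicate 2 the highest in each. Without KO replicate 1 of 6 h 5 members were called lower in place of 10, and 6 without replicate 3 of 6 h. Of 17 genes in common use as references 9 rose and 3 fell, among them Pgk1 (1.49) and B2m (-0.36).

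Some miRNA hairpin genes were lower at 6 h too. Mir23a was among the 12 genes with the largest fall, with 37, 32 and 48 fragments at 1 h and 3, 0 and 3 at 6 h (log2 fold change -3.69, SE 0.35, adjusted p = 1.87e-06). Mir27a of the same cluster, with 4, 4 and 4 fragments against 2, 1 and 0, was called lower (-1.14, SE 0.41, limma adjusted p = 0.0245) from counts close to the floor of 3 fragments. Mir132 had 20, 14 and 19 fragments at 1 h and 3, 0 and 1 at 6 h (-3.00, SE 0.34), and its neighbour Mir212 had 19, 39 and 20 against 2, 4 and 6 (-2.28, SE 0.31). The libraries were made from poly-A RNA, so mature miRNAs were not measured, and which transcripts the fragments over the hairpins came from was not tested. Mir27a, Mir132 and Mir212 were picked after their values were seen. The mature 3p forms, from RefSeq on GRCm38.p6, show the seed (bases 2 to 8) in capitals, since the seed sets which mRNAs a miRNA pairs with.
mmu-miR-132-3p: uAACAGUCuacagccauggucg
mmu-miR-212-3p: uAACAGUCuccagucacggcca
mmu-miR-23a-3p: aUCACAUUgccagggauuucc
mmu-miR-27a-3p: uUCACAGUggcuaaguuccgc
The forms mmu-miR-132-3p and mmu-miR-212-3p, on chromosome 11 at 75173723 to 75173744 and 75173443 to 75173464, carry the same seed, AACAGUC. The forms mmu-miR-23a-3p and mmu-miR-27a-3p, on chromosome 8 at 84208563 to 84208583 and 84208727 to 84208747, carry seeds of their own. Mir6920 went from 3.39, 4.17 and 3.14 FPKM at 1 h to 0 in all 3 libraries of 6 h. Its fragments are not given here and may be few. At 2.22, 2.27 and 2.05 FPKM at 1 h Mir27a rested on 4 fragments in each library.

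Markers of other cells moved with time as well. Of 20 macrophage and monocyte markers tested 17 fell and 1 rose, 15 of them by at least 2-fold. C1qa, a complement gene of tissue macrophages, stood at 14.1, 18.5 and 15.9 FPKM at 1 h and at 0.919, 0.711 and 0.917 FPKM at 6 h (-3.21, SE 0.11). Among lists for B cell subsets 7 of 10 follicular, 11 of 19 marginal zone, 7 of 13 B-1, 6 of 7 transitional, 10 of 15 plasma cell and 8 of 13 germinal center markers fell, and 3 marginal zone and 3 B-1 markers rose. Germinal center calls dropped to 5 without replicate 3 of 1 h, replicate 1 of 6 h or replicate 2 of 6 h. Of 15 T cell markers 9 fell and 0 rose, and of 15 NK cell markers likewise 9 fell and 0 rose. The 12 tested neutrophil markers summed with the rest of their list to 31.58 to 92.72 FPKM at 1 h and 18.48 to 52.5 FPKM at 6 h, with 1 called lower, or 7 with replicate pairs as a block. The erythroid list summed to 555.3 to 1458 FPKM at 1 h and 409 to 674.5 FPKM at 6 h, with 2 of 14 called lower, or 13 with the block, and 1 to 5 with single libraries left out. Of the pan B cell markers 13 of 15 fell and 1 rose, so both B cell and other markers were lower at 6 h. The dendritic cell list summed to 228 to 249.6 FPKM at 1 h and to 333.8 to 355.9 FPKM at 6 h. Yet 3 of 10 tested members rose and 4 fell, with a median of -0.2. Its members Bst2 (0.87) and Irf8 (0.63), both called higher, are also in the interferon and B lineage lists. The higher sum is therefore not read as a rise of dendritic cell markers. Of platelet markers 5 of 5 tested fell, with Gp1bb at 0 in all KO libraries, and Pecam1 was the 1 stromal and endothelial marker tested. The part of such cells in the changes above was not tested. Of 195 immunoglobulin V genes tested 48 fell and 0 rose (median -0.77). Of all tested genes 27.6% fell and 38.5% rose, so without the replicate block the share of V genes that fell was no higher than that of all genes. Ighm stood at 5409.8, 4514 and 7389 FPKM at 1 h and at 3306, 2742 and 4729 FPKM at 6 h, with replicate 3 highest at both times, and fell by 0.69 (SE 0.28, adjusted p = 0.0427). Replicate 2 of 1 h lay below replicate 3 of 6 h, so the times overlapped for Ighm. Within the same-numbered pairs the change was -0.71, -0.72 and -0.64, and with replicate pairs as a block the limma adjusted p was 1.77e-05. On the deposited scale 51 V genes were called lower without the block and 178 with it. Among all 11841 tested genes 3302 were called lower without the block and 3597 with it. With the block the share called lower was thus far higher among V genes than among all genes. C1qa and Ighm are named as markers, outside the rule for named genes.

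The same comparison in WT cells, which shares no library with the KO one, gave 9324 called genes (78.7%). Across the 11841 genes the KO and WT changes had a Pearson correlation of 0.977 and a Spearman correlation of 0.973, a description over genes that are not independent. All 2832 genes called with at least 2-fold change in KO cells had the same sign in WT cells. The test of the difference itself called 3 genes (0.0253%), and 537 had an unadjusted p under 0.05. The count was 1 without KO replicate 1, WT replicate 2 or WT replicate 3 of 1 h, 1 with replicate pairs as a block and 0 with a pseudocount of 0.1 in place of 1. Map3k19 (chromosome 1, 127815253 to 127855031) was near the floor at both times in KO cells, at 0.0451, 0.129 and 0.0751 FPKM and at 0.00778, 0 and 0.0340 FPKM, while WT cells went from 5.82, 7.06 and 5.95 FPKM to 0.299, 0.221 and 0.109 FPKM (difference of the log2 changes 2.49, SE 0.14, adjusted p = 3.3e-05). Nebl, a nebulin relative that binds actin, fell in KO cells from 3.89, 3.95 and 3.82 FPKM to 0.288, 0.296 and 0.346 FPKM and in WT cells from 7.63, 7.93 and 7.78 FPKM to 0.360, 0.354 and 0.281 FPKM (difference 0.82, SE 0.08, adjusted p = 0.0074). Dph5, an enzyme of diphthamide synthesis on elongation factor 2, rose in KO cells from 20.05, 19.99 and 21.3 FPKM to 44.1, 45.1 and 42.2 FPKM and in WT cells from 31.9, 29.7 and 29.7 FPKM to 44.2, 45.8 and 46.5 FPKM (difference 0.50, SE 0.06, adjusted p = 0.0359). In all 3 genes the KO level at 1 h was the lower one and the levels of 6 h were close together or near the floor. The next smallest p belonged to Ptpn7, a tyrosine phosphatase gene (difference 0.63), Tsga13 (1.25) and Pik3r4, a regulatory subunit of the lipid kinase VPS34 (0.51), none of which passed (adjusted p = 0.0913, 0.128 and 0.153). Fcmr differed by -0.20 in its change (adjusted p = 1.0).

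**Figure D5:**
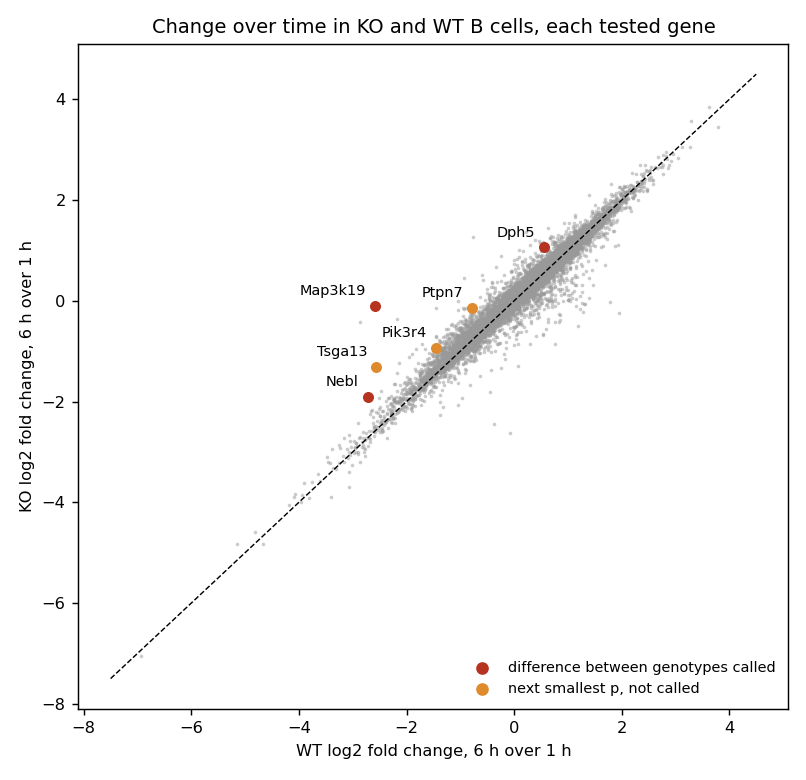
Log2 fold change from 1 h to 6 h in WT (x) and KO cells (y) for each of the 11841 tested genes, with the line of equal change dashed. Map3k19, Nebl and Dph5, whose changes differed between genotypes, are in red, and the 3 genes with the next smallest p, which did not pass, are in orange.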

How the data were processed

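The authors deposited 1 table of FPKM values per gene for 12 libraries, stated per the labels to be dUTP-stranded poly-A RNA-seq of 150 bp read pairs. Per the submitters' processing notes STAR, HTSeq and mm10 were used, and no version is listed. Every column matched a labelled sample and 0 were left out. Here log2(FPKM + 1) was fitted with limma 3.58.1 in R 4.3.3 as 4 group means with a variance trend, over the 11841 genes averaging 1 FPKM or more, and p-values were adjusted by Benjamini-Hochberg over all of them (called: adjusted p under 0.05). Scripts were tested on simulated data. Rose and fell require the call on 4 scales, a rule added after seeing the data. FPKM steps gave whole fragments for 99.02% of tested genes at an annotated length (tolerance 0.001) and for 99.98% with lengths solved from the values.

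The comparison, gene lists and markers were chosen with earlier results of these data known. Named genes are the 12 largest called changes each way without overlap between times, up to 4 members a list by size of change and up to 2 in the opposite direction, and the 6 smallest p for the genotype difference. Same-numbered KO libraries of 1 h and 6 h deviated together (correlation of deviations from the group means 0.365 to 0.476, against -0.279 to -0.132 for other numbers), as did WT libraries (0.338 to 0.547). Deviations cancel within a group, so the values for other numbers are not independent of the rest. The numbers may thus pair libraries within a genotype, which no label states and which the main fit does not use. Alternatives covered scaling, pseudocount, filter, moderation, left-out libraries and the replicate block. Some genes that the rule names are not reported here.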

Additional observations from a re-analysis of the deposited data

Results flagged for a closer look

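3 genes were listed because the test of the difference between genotypes called them (limma, Benjamini-Hochberg adjusted p over 11841 genes). The log2 change from 1 h to 6 h, KO minus WT, was 2.49 for Map3k19 (SE 0.14, adjusted p = 3.3e-05), 0.82 for Nebl (SE 0.08, adjusted p = 0.0074) and 0.50 for Dph5 (SE 0.06, adjusted p = 0.0359). Map3k19 was between 0 and 0.129 FPKM in the 6 KO libraries and between 5.82 and 7.06 FPKM in WT libraries of 1 h. It lies on chromosome 1, from 127815253, as does Fcmr, from 130865669. Nebl and Dph5 lie on chromosomes 2 and 3.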

How the results depend on the processing

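Across alternatives the KO genes called ranged from 6986 (genes averaging 5 FPKM or more) to 11253 (no filter), and from 8893 to 9481 with 1 library left out. With the replicate block over 12 libraries 9659 were called, and 9754 over the 6 KO libraries. The 12-library block moved the list counts given with the results (erythroid, neutrophil, ribosomal protein and V genes) and the members called higher among T cell (to 2), NK cell (to 2) and germinal center markers (to 1), and the named gene mt-Nd2 lost its call (limma adjusted p = 0.0826). It ended no other call of a named gene. After median-ratio scaling 1080 genes were at least 2-fold higher and 1551 lower. By construction that scaling moves the median of all genes. The genotype difference called 21 genes without a filter, 0 among genes averaging 5 FPKM or more (347 with unadjusted p under 0.05), 0 with a pseudocount of 0.1 (530), 0 with voom on recovered fragments (503, chosen after seeing the data), 1 as TPM, 1 with the replicate block, 1 without both KO libraries of replicate 3 (also chosen after seeing the data), and 1 to 3 with 1 library left out, with 1 without KO replicate 1 of 1 h, WT replicate 2 of 1 h or WT replicate 3 of 1 h. The cause was not tested. The Fcmr change was -0.14 and not called without both KO libraries of replicate 3 (limma adjusted p = 0.0811), and ranged from -0.20 to -0.14 with 1 library left out. Of 6325 values for 244 named genes, 6298 kept direction and call, 18 lost the call, 7 gained it and 2 reversed: after quantile normalization mt-Nd2 changed by 0.18 (main value -0.24) and Map3k19 by 0.01 (main value -0.10). Changes near the floor of 0.0623 to 0.0741 FPKM are not detectable at this depth.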
